A study of Mus musculus with 31 samples.

Results

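The 10 genes described here encode transcription factors of the myeloid lineage: Spi1 (PU.1), the interferon regulatory factors Irf8, Irf4 and Irf5, Klf4, Gfi1, and the CCAAT/enhancer-binding proteins Cebpa, Cebpb, Cebpd and Cebpe. They were taken by symbol from a table of 24411 gene entries, and all 10 were found. RNA-seq libraries came from Ly6C-high monocytes of C57BL/6J mice, with 3 libraries in each of 3 groups: blood of healthy mice, blood of mice carrying subcutaneous Lewis lung carcinoma (LLC, a mouse lung tumor line that can be transplanted), and the LLC tumors themselves. The cells had been sorted as positive for CD11b, high for Ly6C and negative for Ly6G and MHC-II. Genotype changes, age, sex and sequencing batch are not given in the sources used here, so group and any such factor cannot be told apart. The labels do not say whether libraries of a group came from separate mice, in which case p-values measure only the spread between these libraries, nor whether tumors and LLC blood came from the same mice.

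PU.1 is the factor on which most myeloid genes depend, and it binds together with IRF8 or IRF4 at composite sites. IRF8 steers progenitors towards monocytes and dendritic cells, while GFI1 and C/EBPε act in granulocyte development. C/EBPα is required for the step to granulocyte-monocyte progenitors, and C/EBPβ takes over in emergency myelopoiesis and in inflamed macrophages, where it binds to many of the same DNA sites.

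Promoter sequences of 6 of the 10 genes matched the annotated start in RefSeq's table (GRCm38.p6, the assembly also called mm10, the build named in the submitters' processing notes). Those of Irf8, Irf4, Cebpa and Cebpb are printed because the results turn on these 2 pairs of related factors. Each line gives the 250 bases before the annotated start on the plus strand, at chr8:120736108-120736357, chr13:30748983-30749232, chr7:35119043-35119292 and chr2:167688665-167688914 in that order, and capitals mark matches of any motif searched.
Irf8: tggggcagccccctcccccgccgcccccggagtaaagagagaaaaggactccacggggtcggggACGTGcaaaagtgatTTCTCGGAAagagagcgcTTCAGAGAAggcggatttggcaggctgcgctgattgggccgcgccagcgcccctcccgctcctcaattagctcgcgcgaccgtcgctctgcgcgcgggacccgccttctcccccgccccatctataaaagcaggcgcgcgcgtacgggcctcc
Irf4: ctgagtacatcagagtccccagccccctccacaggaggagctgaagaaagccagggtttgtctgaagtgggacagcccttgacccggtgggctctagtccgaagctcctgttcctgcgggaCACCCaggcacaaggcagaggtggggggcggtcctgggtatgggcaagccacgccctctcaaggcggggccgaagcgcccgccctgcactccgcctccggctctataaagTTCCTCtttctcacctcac
Cebpa: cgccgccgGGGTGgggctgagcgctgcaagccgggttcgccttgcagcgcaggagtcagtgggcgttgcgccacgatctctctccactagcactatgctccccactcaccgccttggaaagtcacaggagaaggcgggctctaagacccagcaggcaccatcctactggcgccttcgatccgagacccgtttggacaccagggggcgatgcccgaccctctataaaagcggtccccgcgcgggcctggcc
Cebpb: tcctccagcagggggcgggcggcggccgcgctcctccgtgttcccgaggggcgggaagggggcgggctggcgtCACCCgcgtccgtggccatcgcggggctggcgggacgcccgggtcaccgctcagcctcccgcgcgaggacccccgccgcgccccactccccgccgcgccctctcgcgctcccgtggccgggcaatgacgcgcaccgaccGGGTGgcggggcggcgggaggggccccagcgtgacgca

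The motifs were searched on both strands in these windows, and a match describes letters only. They were GAGGAA for ETS factors such as PU.1 (in 23.3% of all 32851 windows of that length), TTGCNNAA for C/EBP (9.56%), TGACGTCA for cyclic AMP response factors (1.55%), TGANTCA for AP-1 (6.75%), TTCNNNGAA for STAT (7.02%), GAAANNGAA for IRF (7.13%), ACGTG for hypoxia response (16.6%) and CACCC for KLF (52.0%). Irf8 held 2 STAT matches, which began 171 and 153 bases before the start, and 1 ACGTG at 186 bases. Irf4 held a GAGGAA on the minus strand at 19 bases before the start and a CACCC at 129 bases. Cebpa and Cebpb held CACCC matches alone, 1 at 242 bases for Cebpa and 2 at 177 and 38 bases for Cebpb. A C/EBP match was found in the window of Gfi1, at 143 bases before its start.

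Total counts ran from 10457492 to 20706412 per library, and a count of 3 corresponded to 0.145 to 0.287 CPM. CPM stands for a gene's count scaled to the library's total, and all levels below are in this unit. Fold changes are scaled by TMM factors instead, which were 1.03 to 1.07 in blood, 0.798 in LLC tumor 1 and 1.00 and 0.968 in LLC tumor 2 and 3, so ratios of CPM and fold changes differ. The 9 monocyte markers listed were all present, with sums of 32613 to 36584 CPM in healthy blood, 23037 to 26505 in blood of LLC mice and 15671 to 20407 in tumor. Of the genes behind the sort, Itgam (CD11b) averaged 922, 1439 and 3405 CPM in these groups and Ly6c2 averaged 1669, 1153 and 358 CPM, while the MHC-II gene H2-Aa was at 184, 54.0 and 34.1 CPM. Markers of other cells differed between groups: fibroblast marker sums were 938 to 3929 CPM in LLC tumor against at most 16.9 in healthy blood, with 414 CPM in LLC blood 1, and NK cell sums were 222 to 513 CPM in healthy blood, 38.5 to 58.8 in blood of LLC mice and 6.83 to 16.3 in tumor. In bulk libraries, fewer cells of a type and less RNA per cell cannot be told apart.

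LLC blood was set against healthy blood to see how circulating monocytes of a tumor-bearing mouse differ. Of the 10 genes, 4 fell (Gfi1, Cebpa, Cebpb and Cebpd) and none rose at an adjusted p under 0.05 (edgeR quasi-likelihood test, Benjamini-Hochberg over 12337 genes). In that comparison 23.6% of all tested genes were called, 9.61% lower and 14% higher, and 9 of the 10 estimates were below 0, with a median log2 fold change of -0.41 against -0.01 over all genes. Limma-voom, with quality weights, and the fit of only these 6 libraries called 8 of the 10, adding Irf8, Irf4, Irf5 and Klf4. Over the whole table they called 5884 of 12337 and 4889 of 11563 genes, against 2917 in the main fit. Gfi1 passed the filter on low counts only through healthy blood, where it is high, so its call is not comparable with the background and 3 calls among the other 9 genes remain. The count of the 10 was 8 without LLC tumor 1. That library is in neither group but enters the scaling and the shared estimate of the spread. The count was 2 (Gfi1 and Cebpb) without healthy blood 1 or any single LLC blood library. The whole table gave 5064 genes without LLC tumor 1 and 1494 to 2625 without those blood libraries. Over all genes, 59.4% of the calls were in the higher direction with TMM, against 46.3% with upper-quartile factors.

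Between LLC tumor and LLC blood, Cebpb and Klf4 rose and Spi1, Irf8, Irf4, Cebpa and Cebpd fell. These were 7 of the 10 genes, where 61.3% of all tested genes were called, 29.6% higher and 31.7% lower, so the share called is near that of the whole table. The median log2 fold change was -0.35 against -0.03 over all genes. Scaling by library totals moved the median of all genes to -0.23 and the share of higher calls from 48.3% to 36.3%, and all 7 calls were made in the same direction under each of the 3 other scalings.

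Set against healthy blood directly, LLC tumor had 2 genes higher (Cebpb and Cebpe) and 7 lower (all others but Klf4, with Gfi1 again tested only through its healthy blood level). All genes together gave 66.5% called, 33.5% higher and 33% lower, and 50.4% of the calls were higher with TMM and 40.6% with library totals, which moved the median of all genes to -0.17. The 3 comparisons share libraries pairwise, so their values are given side by side and are not independent. The median over the 10 genes was -0.88, against -0.00 over all genes.

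**Figure D1:**
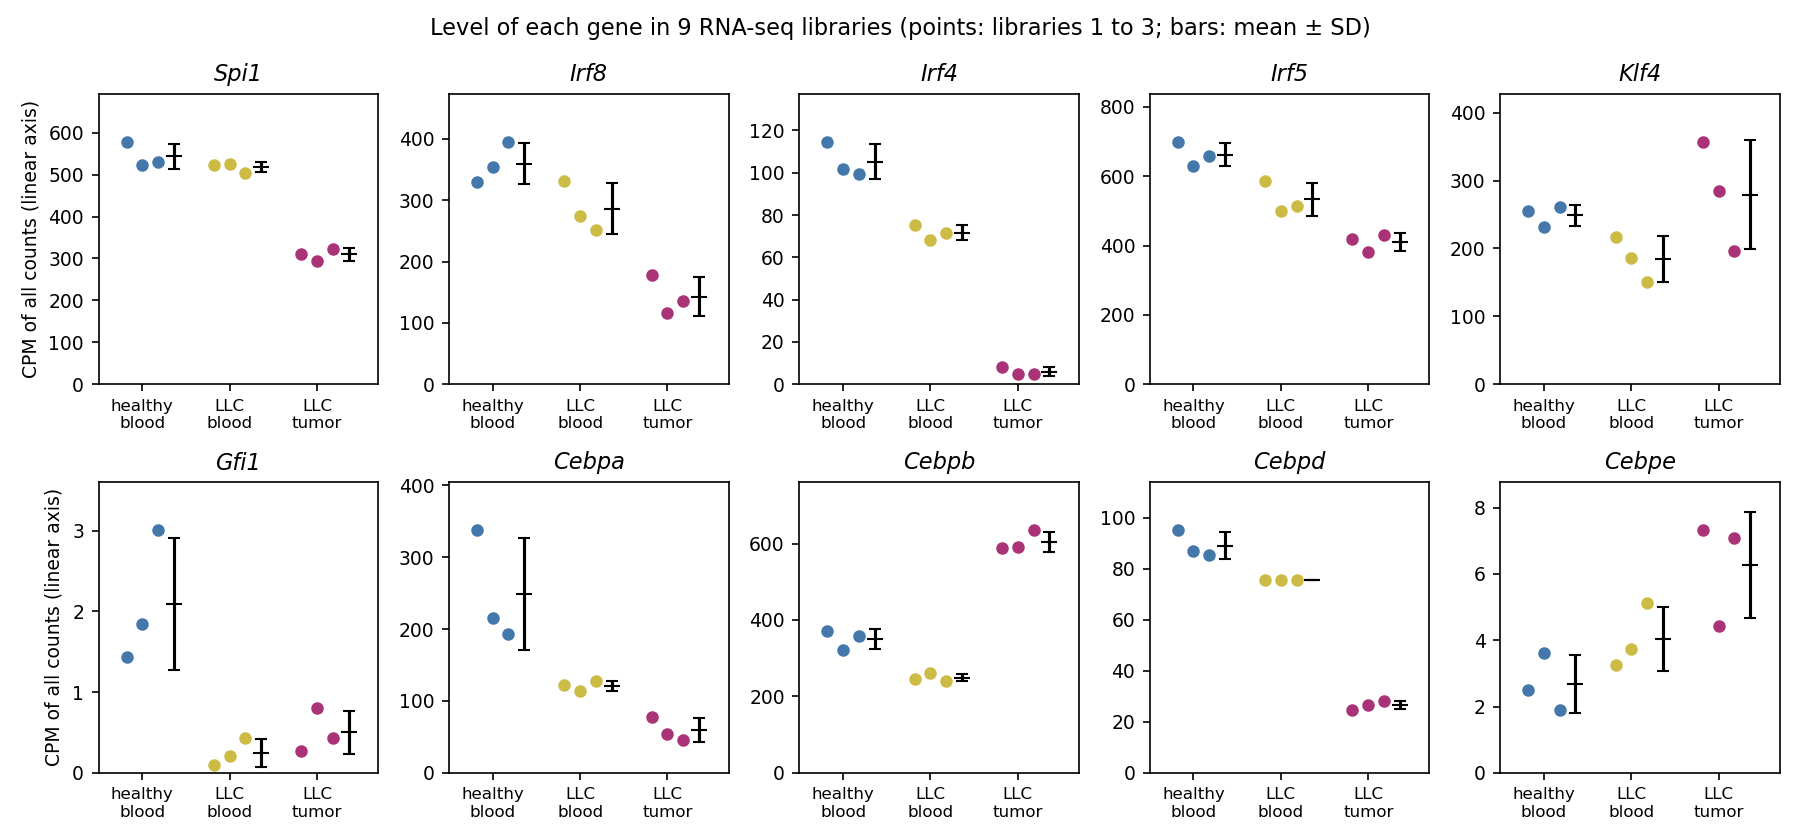
Level of each of the 10 genes (CPM of all counts, linear axes from 0) in the 3 libraries of healthy blood, LLC blood and LLC tumor, points in the order of replicates 1 to 3, with mean ± SD bars. Irf4 falls from 68.3 to 75.3 CPM in LLC blood to at most 8.40 in LLC tumor, and Cebpb lies at 588 to 634 CPM in LLC tumor, above all blood libraries.

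In the plot of levels, each panel has its own axis, so heights compare libraries of a gene and not genes with each other. The plot of fold changes below gives the same genes on a common log2 axis with 95% intervals.

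**Figure D2:**
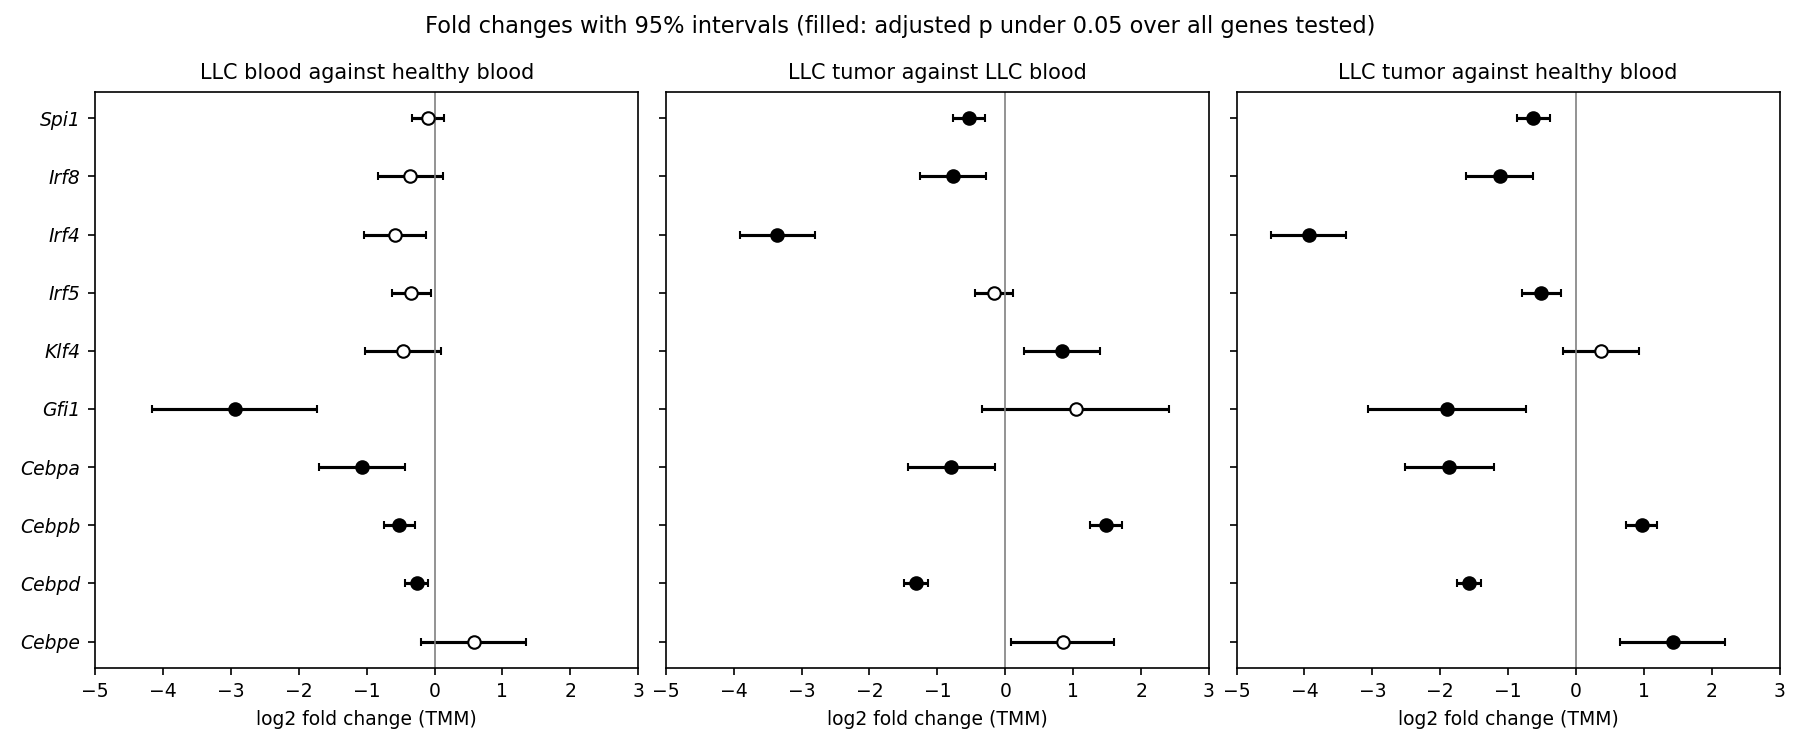
Log2 fold changes (TMM scaled, x axis) of the 10 genes in the 3 comparisons with 95% intervals, filled where the adjusted p is under 0.05. Irf4 has the largest fall in both tumor comparisons (-3.36 and -3.94), Gfi1, tested only because it is high in healthy blood, lies at -2.94 in the first panel with a wide interval, and Cebpb is filled on opposite sides in the first and second panel.

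Spi1 encodes PU.1, the ETS factor at the top of the myeloid program (ENSMUSG00000002111, chr2:91082374-91115759). It stood at 578, 523 and 529 CPM in healthy blood 1 to 3, at 523, 526 and 504 CPM in LLC blood, and at 312, 294 and 323 CPM in LLC tumor. The blood groups overlapped and all tumor libraries were lower. The blood difference was -0.10 ± 0.11 on the log2 scale (SE, adjusted p = 0.559, 95% interval -0.34 to 0.15). In LLC tumor it fell from 518 ± 11.8 to 309 ± 14.5 CPM (SD, n = 3), a log2 fold change of -0.53 ± 0.11 (SE, adjusted p = 0.00194), and by 0.63 against healthy blood (adjusted p = 0.000654). The size was modest beside the rest of the table, as 48.1% of genes changed less between LLC tumor and LLC blood.

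Irf8, the monocyte and dendritic cell lineage factor (ENSMUSG00000041515, chr8:120736358-120756694), was at 329, 354 and 395 CPM in healthy blood. It was at 332, 275 and 252 CPM in LLC blood and at 178, 116 and 135 CPM in LLC tumor. The blood groups overlapped by LLC blood 1, which lay just above healthy blood 1, and every tumor library was below every blood library. In LLC tumor Irf8 fell from 286 ± 41.1 to 143 ± 31.5 CPM (SD, n = 3), with a log2 fold change of -0.77 ± 0.22 (SE, adjusted p = 0.0119), and against healthy blood it fell by 1.13 (adjusted p = 0.00137). For blood the estimate was -0.36 ± 0.21 (adjusted p = 0.260), and without LLC tumor 1 it was -0.41 and was called (adjusted p = 0.0237).

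Irf4, which partners PU.1 and acts in dendritic cells, lymphocytes and alternatively activated macrophages, showed the largest change of the 10 in the tumor (ENSMUSG00000021356, chr13:30749233-30766981). It was at 115, 102 and 99.3 CPM in healthy blood and at 75.3, 68.3 and 71.5 CPM in LLC blood. In LLC tumor it was at 8.40, 4.79 and 4.84 CPM, from 93, 54 and 56 counts. No group overlapped another. Irf4 fell 10.2-fold from LLC blood to LLC tumor (log2 fold change -3.36 ± 0.24 SE, adjusted p = 3.54e-06), a larger change than that of 92.1% of tested genes, and 15.3-fold against healthy blood (adjusted p = 1.26e-06). The blood difference was -0.58 ± 0.20 (adjusted p = 0.0681), and it was called without LLC tumor 1 (-0.63, adjusted p = 0.000442) and without LLC tumor 2 (-0.58, adjusted p = 0.0398).

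The ratio of Irf4 to Irf8 counts within a library does not depend on scaling. It was 0.348, 0.288 and 0.252 in healthy blood, 0.227, 0.248 and 0.284 in LLC blood, with 0.0475, 0.0416 and 0.0361 in the LLC tumor libraries. The blood groups overlapped, and the tumor ratio was 6.08-fold below that of LLC blood. An exact permutation test (two-sided) of that difference gave p = 0.1, the smallest that 3 against 3 libraries allow, and 0.138 after Benjamini-Hochberg adjustment over 18 ratio tests. With each library left out in turn or no count added, the log2 difference was -2.70 to -2.50.

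The sum of the dendritic cell markers, all 11 of them in the table, moved in the same direction as Irf4 and Irf8. Their summed level was 172 to 188 CPM in healthy blood, 89.9 to 109 in blood of LLC mice and 11.3 to 15.8 in tumor. Btla was the most abundant of them in blood (55.6 to 81.2 CPM, against 3.16 to 5.18 in LLC tumor). Single markers did not all follow the sum: Clec9a was at 0.903, 4.17 and 3.37 CPM in LLC tumor, against 1.25 to 1.53 in LLC blood. The defining markers Xcr1, Zbtb46 and Siglech were at no more than 2.64 CPM in any library, Siglech being at 0 in LLC tumor 1. B cells also express both genes: the 10 B cell markers summed to 28.4, 237 and 36.7 CPM in healthy blood 1 to 3, to 38.0 to 43.9 CPM in LLC blood and to 7.95 to 13.5 CPM in LLC tumor, where Cd79a, Ms4a1, Blk and Fcmr were at 0. In healthy blood 1 to 3 Irf4 was at 115, 102 and 99.3 CPM and Irf8 at 329, 354 and 395 CPM. The part of these cells in the Irf4 and Irf8 levels was not tested.

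Irf5, a driver of inflammatory cytokine genes in macrophages (ENSMUSG00000029771, chr6:29526130-29541869), was at 699, 631 and 657 CPM in healthy blood. It was at 586, 498 and 514 CPM in LLC blood and at 418, 380 and 430 CPM in LLC tumor. The groups did not overlap in CPM at either step. After TMM scaling neither step passed the test: the log2 fold change was -0.34 ± 0.13 in blood (SE, adjusted p = 0.0796) and -0.17 ± 0.13 from LLC blood to LLC tumor (adjusted p = 0.263, 95% interval -0.45 to 0.11). Across both steps Irf5 fell by 0.51 (adjusted p = 0.00546). Without LLC tumor 1 both steps were called (-0.39, adjusted p = 0.00922, and -0.27, adjusted p = 0.0435), as was the blood step without LLC tumor 2 (-0.34, adjusted p = 0.0432). The tumor step was -0.06 without LLC tumor 2 (adjusted p = 0.668) and -0.26 without LLC blood 2 (adjusted p = 0.144), and with library totals it was called at -0.38 (adjusted p = 0.00289).

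Among the other interferon regulatory factor genes and co-repressors, 8 of 9 were tested. In LLC blood 14% of all tested genes were higher and 9.61% lower, and of these 8, 1 was higher and 3 lower (median -0.38). The higher one, the co-repressor Irf2bpl (0.37 ± 0.10 SE, adjusted p = 0.0297), was not called with upper-quartile factors (0 higher and 5 lower) or library totals (0 and 3), nor without any healthy blood library or LLC blood 2. Irf2bp1, another co-repressor, fell by 0.41 (adjusted p = 0.0290), a call lost without healthy blood 1 or 3 or any LLC blood library. From LLC blood to LLC tumor 1 was higher and 5 lower (median -0.42), beside 29.6% and 31.7% of all tested genes. Irf1, the interferon-gamma responsive family member, fell from 189 ± 17.1 to 87.6 ± 28.1 CPM (SD, n = 3, adjusted p = 0.0150), a call lost without LLC tumor 3. Irf9, the DNA-binding part of the complex that answers type I interferon, fell from 191 ± 9.34 to 85.7 ± 13.4 CPM (adjusted p = 0.000894). Irf2bp2, a co-repressor, went the other way, from 68.2 ± 3.50 to 379 ± 28.0 CPM, or by 2.69 ± 0.14 on the log2 scale (SE, adjusted p = 5.39e-07), having fallen in LLC blood relative to healthy blood (-0.71 ± 0.13, adjusted p = 0.00506).

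Klf4, a zinc finger factor needed for Ly6C-high and resident monocytes (ENSMUSG00000003032, chr4:55527137-55532475), was at 255, 232 and 261 CPM in healthy blood and at 217, 185 and 151 CPM in LLC blood. In LLC tumor it was at 357, 284 and 197 CPM, and LLC tumor 3 lay below LLC blood 1. Klf4 rose from LLC blood to LLC tumor by 0.83 ± 0.25 on the log2 scale (SE, adjusted p = 0.0159). That call was lost without LLC blood 3 (0.70, adjusted p = 0.0653), and the value was 0.51 without LLC tumor 1 (adjusted p = 0.0253). Against healthy blood it was 0.37 ± 0.25 (adjusted p = 0.211) for the tumor, at -0.0053 without LLC tumor 1 and 0.60 without LLC tumor 3 (adjusted p = 0.0292), and -0.46 ± 0.25 for LLC blood (adjusted p = 0.210), which was called without LLC tumor 1 (-0.51, adjusted p = 0.0268).

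Fibroblasts and endothelial cells express Klf4 as well. Klf4 was at 357, 284 and 197 CPM in LLC tumor 1 to 3. Fibroblast marker sums, from all 7 listed genes, were 938, 3470 and 3929 CPM in the same order. Endothelial sums were 69.6, 51.1 and 57.5 CPM in these libraries and 11.2 to 18.7 in blood. Dissociation and immediate early genes respond to handling as well as to signals in tissue. From LLC blood to LLC tumor 20 of 21 tested were called higher and none lower (median 2.28), beside 29.6% and 31.7% of all tested genes. Ier3 rose from 12.3 ± 1.37 to 620 ± 97.6 CPM (SD, n = 3, adjusted p = 5.14e-08). Fosb (5.14 ± 0.44 SE, adjusted p = 9.85e-06) and Egr1 (4.73 ± 0.46, adjusted p = 2.02e-05), both immediate early factors, rose as well. In LLC blood against healthy blood 2 of the dissociation and immediate early genes were higher and 5 lower (median -0.79), beside 14% and 9.61% of all tested genes. Socs3 was higher (1.26 ± 0.16 SE, adjusted p = 0.000779) and Ier2 lower (-0.99 ± 0.22, adjusted p = 0.0122, lost without LLC blood 2), as was Jund (-0.98 ± 0.24, adjusted p = 0.0176, lost without healthy blood 1, LLC blood 2 or LLC blood 3). The part of either in the Klf4 and Cebpb levels was not tested.

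Of 10 other KLF genes 9 were tested, 2 higher and 2 lower in LLC blood (median -0.27) and 4 higher and 3 lower from LLC blood to LLC tumor (median 0.52). All tested genes gave 14% higher and 9.61% lower in LLC blood, and 29.6% and 31.7% from LLC blood to LLC tumor. Klf6, an early response factor of macrophages, rose with Klf4, from 319 ± 27.6 to 1287 ± 423 CPM (SD, n = 3), or by 2.25 ± 0.29 on the log2 scale (SE, adjusted p = 0.000122). Klf13 fell from 677 ± 24.0 to 228 ± 14.0 CPM (adjusted p = 4.58e-06). Klf2, a factor of quiescence, fell in LLC blood by 0.64 (adjusted p = 0.0339), a call lost without any single blood library. Klf3, a repressor of the family, rose in LLC blood (0.89 ± 0.12, adjusted p = 0.00108) and fell in the tumor (-1.12 ± 0.12, adjusted p = 4.02e-05).

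**Figure D3:**
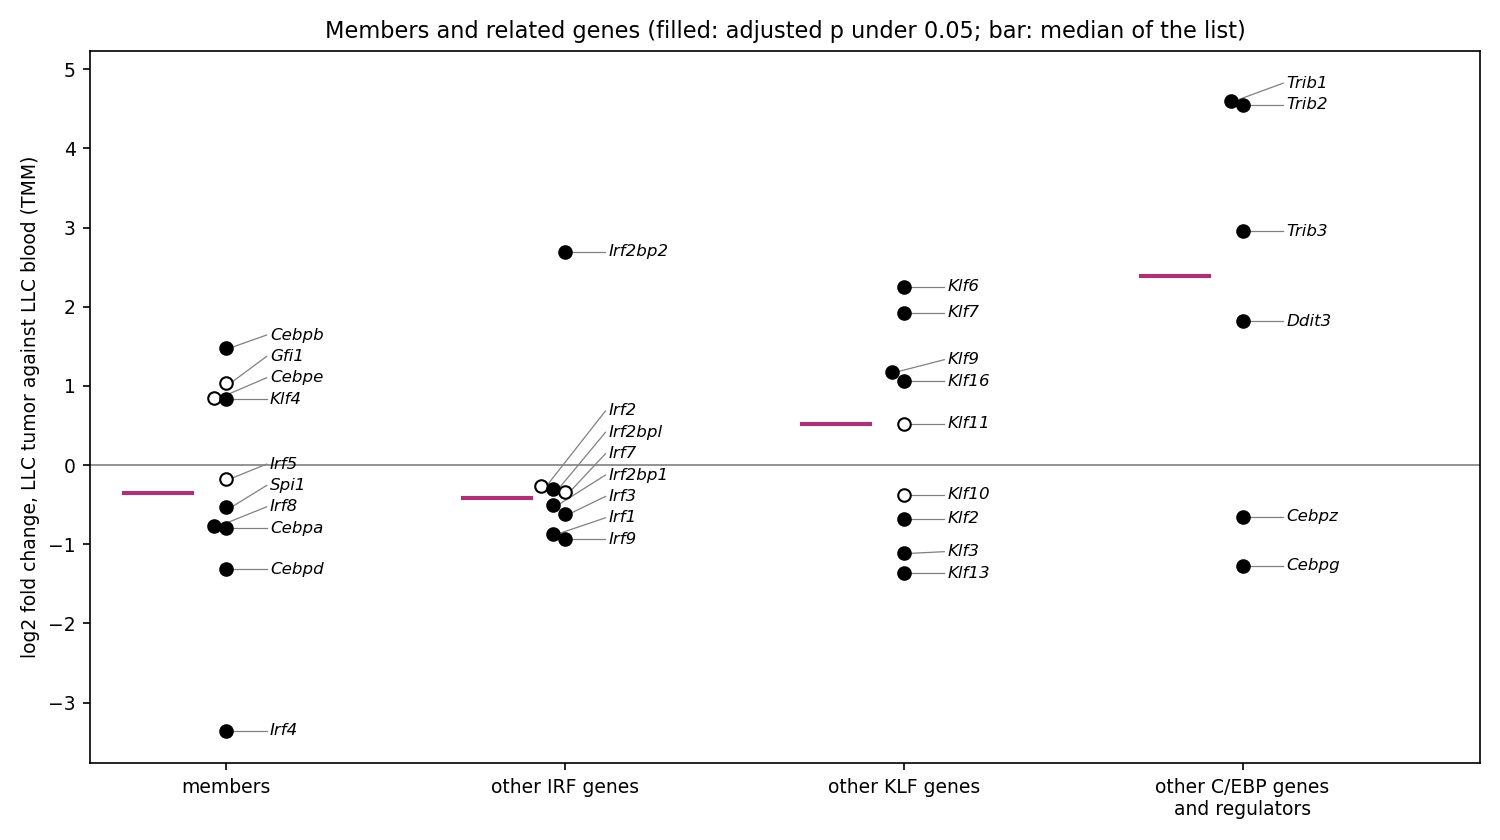
Log2 fold changes from LLC blood to LLC tumor (y axis, TMM scaled) of the 10 genes and of the tested genes of the other IRF, KLF and C/EBP lists, filled where the adjusted p is under 0.05, with a bar at each list's median. Irf2bp2 at 2.69 and Trib1 at 4.60 lie above all of the 10 genes, and Irf4 at -3.36 lies below every gene shown.

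Gfi1, the repressor that opposes PU.1 and favors granulocytes, was near the lower limit of these libraries (chr5:107716655-107725805). It had 20, 30 and 49 counts in healthy blood (1.43, 1.84 and 3.00 CPM), 1, 3 and 9 in LLC blood (0.0956, 0.208 and 0.435 CPM) and 3, 9 and 5 in LLC tumor (0.271, 0.798 and 0.432 CPM). Healthy blood lay above all other libraries, and LLC blood and LLC tumor overlapped. Only through healthy blood did Gfi1 pass the filter on low counts, so it could enter the test only as a gene that is higher there. Its log2 fold change was -2.94 ± 0.54 in LLC blood (SE, adjusted p = 0.00469) and -1.90 ± 0.52 in LLC tumor (adjusted p = 0.00928) against healthy blood. The step from LLC blood to LLC tumor was 1.04 ± 0.61 (adjusted p = 0.167, 95% interval -0.34 to 2.42), from sums of 13 and 17 counts, against 99 in healthy blood. That value was 0.62 without LLC tumor 2 (adjusted p = 0.477) and 1.77 without LLC blood 3 (adjusted p = 0.0686). The T cell markers, another lineage in which Gfi1 is expressed, summed to 24.9, 66.8 and 105 CPM in healthy blood 1 to 3. They summed to 3.97 to 8.62 CPM in LLC blood and 6.40 to 13.5 in LLC tumor, and the part of those cells in the Gfi1 level was not tested.

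Cebpa, the C/EBP factor of myeloid commitment (ENSMUSG00000034957, chr7:35119293-35121928), fell at both steps. It was at 337, 215 and 194 CPM in healthy blood, at 122, 113 and 128 CPM in LLC blood and at 78.2, 53.5 and 45.6 CPM in LLC tumor, with no overlap. The log2 fold change in LLC blood was -1.07 ± 0.28 (SE, adjusted p = 0.0233). That call was lost without healthy blood 1, the highest library (-0.78, adjusted p = 0.0877), and without LLC blood 1 (-1.06, adjusted p = 0.0604), 2 (-1.01, adjusted p = 0.0883) or 3 (-1.11, adjusted p = 0.0703). The tumor step was -0.80 ± 0.28 (adjusted p = 0.0341), which was lost without LLC blood 1 (-0.81, adjusted p = 0.0624) or 3 (-0.76, adjusted p = 0.0819) or LLC tumor 2 (-0.67, adjusted p = 0.105) or 3 (-0.60, adjusted p = 0.114). Across both steps Cebpa fell 3.64-fold (log2 fold change -1.86 ± 0.29, adjusted p = 0.000354), a call made in all 19 alternatives.

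Cebpb, the family member of emergency myelopoiesis and inflamed macrophages (ENSMUSG00000056501, chr2:167688915-167690432), fell in LLC blood and rose in the tumor. It was at 372, 322 and 358 CPM in healthy blood, at 246, 260 and 241 CPM in LLC blood and at 588, 590 and 634 CPM in LLC tumor. No group overlapped another, and the order was LLC blood, healthy blood, LLC tumor. The log2 fold change was -0.52 ± 0.10 in LLC blood (SE, adjusted p = 0.00612), 1.48 ± 0.10 from LLC blood to LLC tumor (adjusted p = 2.62e-06) and 0.96 ± 0.10 from healthy blood to LLC tumor (adjusted p = 2.93e-05). These 3 calls were made in all 19 alternatives. In 4 libraries the Cebpb count was not a whole number.

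Cebpd, the acute-phase member of the family (ENSMUSG00000071637, chr16:15887286-15889545), went the opposite way to Cebpb in the tumor. It was at 95.1, 86.8 and 85.4 CPM in healthy blood, at 75.6, 75.7 and 75.8 CPM in LLC blood and at 24.8, 26.7 and 28.0 CPM in LLC tumor, with no overlap. Cebpd fell by 1.31 ± 0.08 on the log2 scale from LLC blood to LLC tumor (SE, adjusted p = 1.27e-06). The blood difference of -0.26 ± 0.08 (adjusted p = 0.0363) was lost in 9 of 19 alternatives: under library totals, with no filter, at the stricter threshold, and without healthy blood 1 (-0.21, adjusted p = 0.139) or 3 (-0.29, adjusted p = 0.0726), any LLC blood library (-0.26 to -0.25, adjusted p of 0.0842 to 0.120) or LLC tumor 3 (-0.26, adjusted p = 0.0532). Its counts were not whole in any of the 9 libraries, as happens when reads are shared with another gene, so its level depends on how the authors split them.

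Cebpe, the factor of terminal granulocyte differentiation, was the least abundant C/EBP gene listed (ENSMUSG00000052435, chr14:54710363-54712174). Counts of 35, 59 and 31 in healthy blood, 34, 54 and 106 in LLC blood, with 81, 50 and 82 in the LLC tumor libraries gave 2.50, 3.62 and 1.90, 3.25, 3.74 and 5.12, and 7.31, 4.43 and 7.09 CPM. Neighbouring groups overlapped, while LLC tumor lay above healthy blood throughout, by 1.42 ± 0.34 on the log2 scale (SE, adjusted p = 0.00497). The steps between them were 0.58 ± 0.34 (adjusted p = 0.256) and 0.85 ± 0.34 (adjusted p = 0.0525). The tumor step was called without healthy blood 2 (0.87, adjusted p = 0.0425), LLC blood 3 (1.06, adjusted p = 0.0485) or LLC tumor 2 (1.09, adjusted p = 0.0181).

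Cebpa, Cebpb and Cebpd are intronless, so their levels could be compared per kilobase of RefSeq gene length (2636, 1518 and 2260 bases). Cebpb stood at 231 ± 16.8 CPM per kilobase in healthy blood, 164 ± 6.61 in LLC blood and 398 ± 17.2 in LLC tumor (SD, n = 3). Cebpa was at 94.3 ± 29.4, 45.8 ± 2.74 and 22.4 ± 6.44, and Cebpd at 39.4 ± 2.31, 33.5 ± 0.0342 and 11.7 ± 0.716 CPM per kilobase. Of the sum of the 3 genes, Cebpb made up 59.0%, 63.9% and 67.9% in healthy blood, 67.1%, 69.2% and 66.0% in LLC blood, with 90.5%, 92.4% and 93.4% in the LLC tumor libraries. Cebpa's share averaged 25.5%, 18.8% and 5.21% in the same order of groups.

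**Figure D4:**
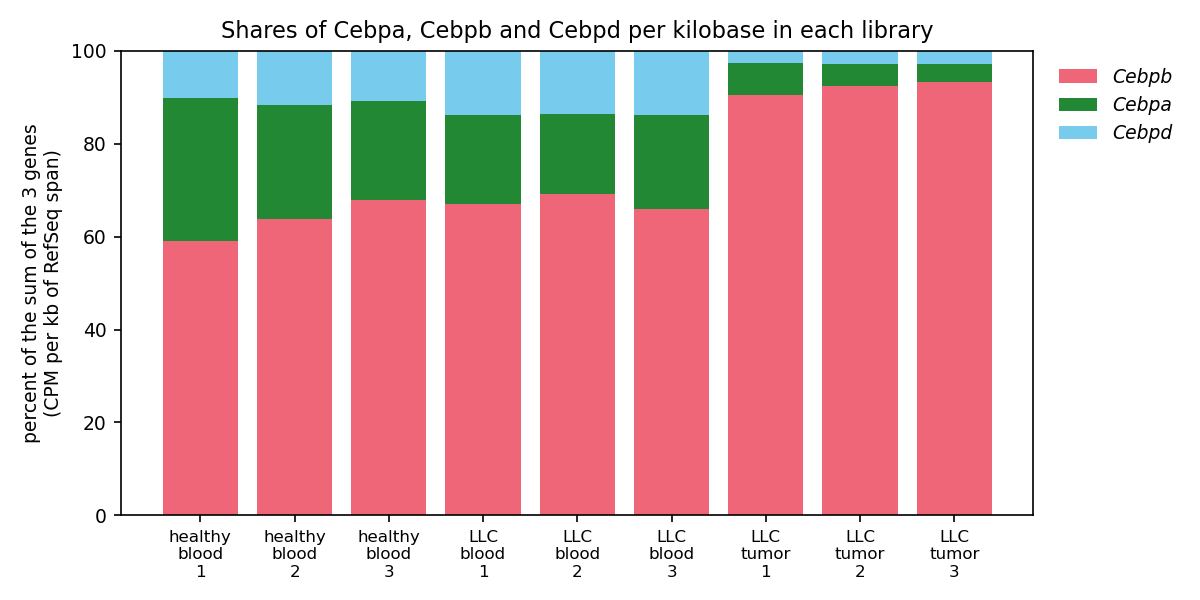
Shares (percent, y axis from 0) of Cebpb, Cebpa and Cebpd in the sum of their levels per kilobase of RefSeq gene length, as 1 stacked bar for each of the 9 libraries. Cebpb takes 90.5% to 93.4% of the sum in the LLC tumor libraries and 59.0% to 69.2% in the blood libraries.

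The ratio of Cebpb to Cebpa counts was 1.10, 1.50 and 1.85 in healthy blood, 2.02, 2.30 and 1.89 in LLC blood, with 7.52, 11.0 and 13.9 in the LLC tumor libraries. It was 5.08-fold higher in LLC tumor than in LLC blood, and the groups did not overlap at either step (exact permutation test, two-sided, p = 0.1 each, the smallest possible, adjusted 0.138). Cebpe to Cebpa was higher at each step, going from 0.00752, 0.0170 and 0.00998 over 0.0271, 0.0333 and 0.0403 to 0.0941, 0.0835 and 0.156, without overlap and with the same exact p of 0.1 at each step. Cebpd to Cebpa was higher in LLC blood by 0.77 on the log2 scale, without overlap (exact permutation p = 0.1). From there LLC tumor differed by -0.45 (exact permutation p = 0.2) and from healthy blood by 0.32 (exact permutation p = 0.4), with overlap in both. Klf4 to Irf8 was 0.654 to 0.773 in healthy blood, 0.599 to 0.674 in LLC blood and 1.45 to 2.45 in LLC tumor, 3.00-fold higher there than in LLC blood (exact permutation p = 0.1). Gfi1 to Spi1 was 7.69-fold below its healthy blood value in LLC blood, and 3.34-fold higher in LLC tumor than in LLC blood (exact permutation p = 0.1 each). Both folds are imprecise, as Gfi1 had 1, 3 and 9 counts in LLC blood. Gfi1 also passed the filter on low counts only through healthy blood, where it is high.

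**Figure D5:**
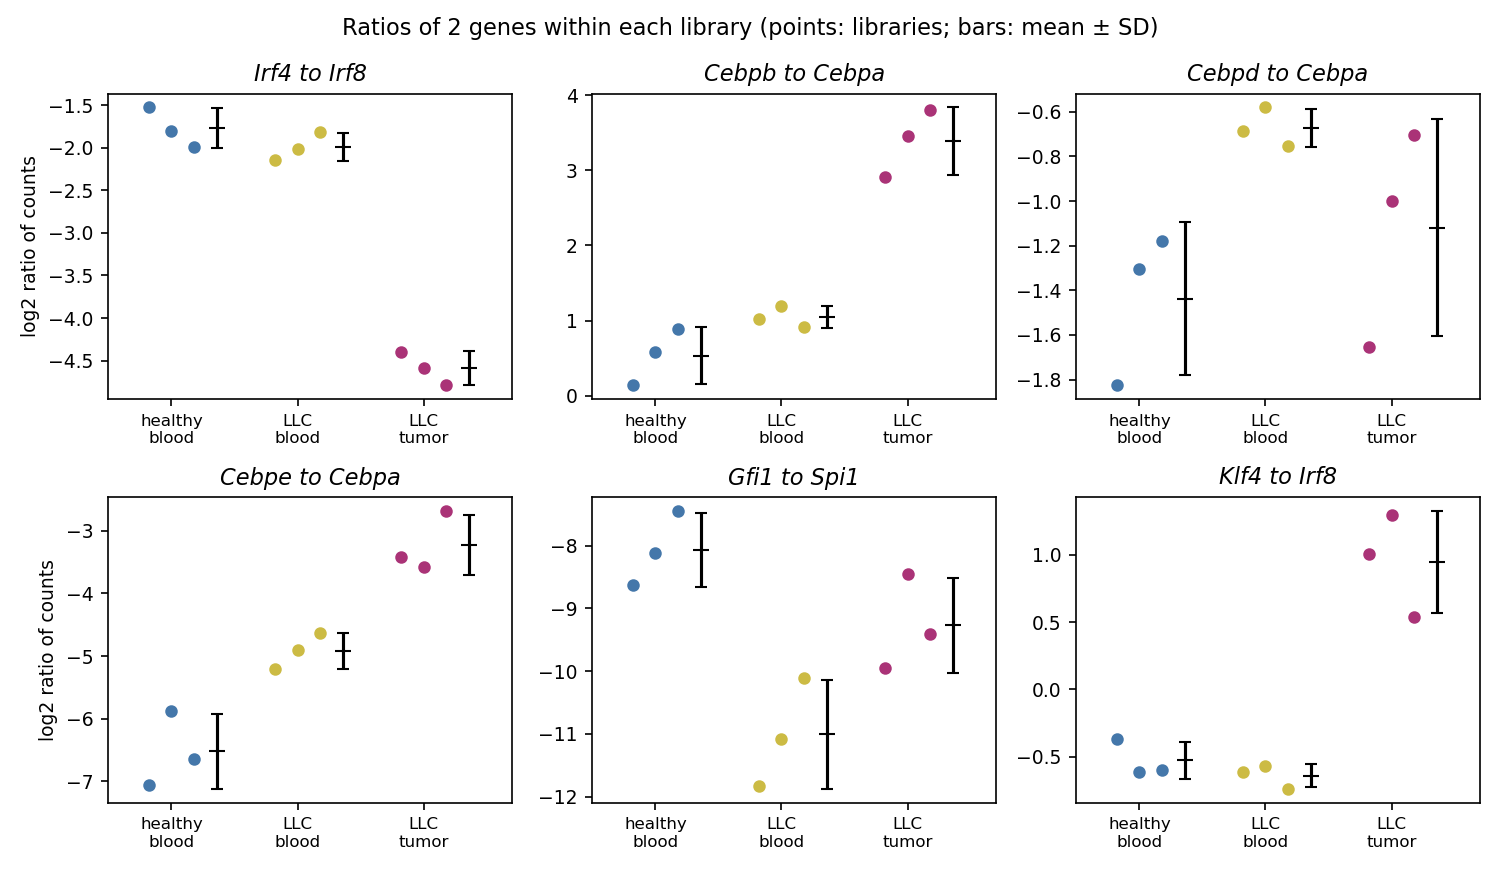
Log2 ratios of the counts of 2 genes within each library (y axes, 0.5 added to each count) for 6 pairs in the 3 groups, points in the order of replicates 1 to 3, with mean ± SD bars; the axes do not start at 0. The tumor libraries stand apart from both blood groups for Irf4 to Irf8, Cebpb to Cebpa, Cebpe to Cebpa and Klf4 to Irf8.

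Other C/EBP genes and regulators of the family showed 1 of 6 lower and none higher in LLC blood (median -0.50), and 4 higher and 2 lower from LLC blood to LLC tumor (median 2.39). Over all tested genes 9.61% were lower and 14% higher in LLC blood, and 29.6% higher and 31.7% lower from LLC blood to LLC tumor. Trib1, a pseudokinase that directs C/EBPα protein to degradation, rose from 21.8 ± 6.59 to 444 ± 127 CPM (SD, n = 3), or by 4.60 ± 0.32 on the log2 scale (SE, adjusted p = 2.87e-06). Cebpg, a partner of the other members, fell at both steps, by 0.54 in LLC blood (adjusted p = 0.0178, lost without LLC blood 1 or 2) and by 1.27 in the tumor (adjusted p = 4.20e-05). Cebpz fell in the tumor by 0.66 (adjusted p = 9.23e-05).

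Inflammatory genes known to bind C/EBPβ were 10 higher and 1 lower of 12 tested from LLC blood to LLC tumor. Of all tested genes, 29.6% were called higher and 31.7% lower there. The median log2 fold change of the inflammatory genes was 6.68. It was 4.90 with the 3 genes that had at most 3 counts in every LLC blood library taken against 3 counts per library instead. Those 3 genes passed the filter on low counts only through LLC tumor, where they are high, so calls of them are not comparable with the background. Ptgs2, the prostaglandin synthase, rose from 2.48 ± 3.00 to 1746 ± 276 CPM (SD, n = 3, adjusted p = 3.11e-06), and Nos2, the inducible nitric oxide synthase, from 0.167 ± 0.187 to 199 ± 40.7 CPM (adjusted p = 1.35e-07). At that level Nos2 could not pass the filter through LLC blood either, so its call is likewise not comparable with the background. Cxcl1, a neutrophil attractant, had 3, 0 and 1 counts in LLC blood and stood at 82.4 ± 10.1 CPM in LLC tumor. In LLC blood against healthy blood 1 of the 12 was higher (Lcn2, below) and none lower (median -0.55, or -0.42 with 2 such genes treated likewise), beside 14% and 9.61% of all tested genes. Il6 had 0, 1 and 2 counts in LLC blood and 2, 1 and 1 in healthy blood, so it could hardly be called lower. The part of C/EBPβ in the levels of these genes was not tested.

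Granule genes, which C/EBPε and C/EBPα drive in granulocyte precursors, were 8 higher and 1 lower of 16 tested in LLC blood (median 1.70), beside 14% and 9.61% of all tested genes. From LLC blood to LLC tumor 2 were higher and 11 lower (median -1.76), beside 29.6% and 31.7% of all tested genes. Prtn3, a serine protease of primary granules, was at 8.81 ± 2.85, 44.4 ± 13.7 and 8.93 ± 3.64 CPM in the 3 groups (SD, n = 3), and it rose in LLC blood (adjusted p = 0.00112) and fell in LLC tumor (adjusted p = 0.000271). Lcn2, a protein of secondary granules that is also in the inflammatory list, rose in LLC blood from 5.88 ± 3.26 to 66.2 ± 26.6 CPM (adjusted p = 0.00123), while Cd177 fell (-0.74 ± 0.19 SE, adjusted p = 0.0227), a call that leaving out healthy blood 1 or 3, or either of LLC blood 2 and 3, ended. In LLC tumor Hp, the gene of haptoglobin, fell (-1.85 ± 0.10, adjusted p = 5.63e-07) and Mmp9, a gelatinase, rose from 1.72 ± 1.47 to 56.1 ± 28.6 CPM (adjusted p = 0.00154). Progenitor markers, 5 of whose 8 genes are in the granule list, summed to 13.6 to 19.4 CPM in healthy blood, 40.4 to 77.5 in LLC blood and 10.2 to 32.1 in LLC tumor. Most of the LLC blood sum was Prtn3, at 29.7, 56.9 and 46.7 CPM. Outside the granule list, Cd34 was at 1.78 to 2.43, 1.73 to 2.94 and 4.15 to 19.6 CPM in the 3 groups. Myb was at 2.21 to 2.57, 1.15 to 1.66 and 0 to 0.432 CPM, and Kit at no more than 1.04 CPM in any library. Neutrophil markers, several of them also in the granule list, summed to 1020 to 1245, 1059 to 1437 and 374 to 585 CPM. Csf3r, Cd177 and Mmp8 made up most of that sum. Csf3r was at 498 to 543 CPM in healthy blood and 488 to 496 in LLC blood. S100a8, a rarer neutrophil marker, was at 2.93, 61.2 and 4.66 CPM in healthy blood 1 to 3 and at 49.9, 217 and 168 CPM in LLC blood. The part of progenitors and neutrophils in the granule genes was not tested.

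Receptor and surface genes bound by PU.1 and C/EBP factors moved in both directions. In LLC blood 4 were higher and 3 lower of 21, beside 14% and 9.61% of all tested genes. Tlr4, the endotoxin receptor, was higher by 0.88 ± 0.13 (SE, adjusted p = 0.00208) and Il6ra by 0.68 ± 0.12 (adjusted p = 0.00443). Lyz2, the lysozyme gene of myeloid cells, fell by 0.67 (adjusted p = 0.0452), a call lost without any single blood library. From LLC blood to LLC tumor 8 were higher and 8 lower (median -0.17), beside 29.6% and 31.7% of all tested genes, or 8 and 11 under library totals. The part of PU.1 and C/EBP factors in these levels was not tested. Mrc1, the mannose receptor, rose from 6.95 ± 1.27 to 391 ± 107 CPM (SD, n = 3, adjusted p = 3.68e-07) and Cd14 from 49.4 ± 2.26 to 1611 ± 347 CPM (adjusted p = 3.92e-07), while the integrin gene Itgal fell from 1688 ± 57.5 to 419 ± 42.4 CPM (adjusted p = 1.47e-06).

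Of 30 other hematopoietic transcription factor genes 28 were tested, with 2 higher and 5 lower in LLC blood (median -0.22) and 14 higher and 8 lower in LLC tumor against LLC blood (median 0.28, or 12 and 10 with a median of 0.06 under library totals). The largest rises among the abundant genes were those of Ets2 (6.24 ± 1.30 to 378 ± 99.9 CPM, SD, n = 3, adjusted p = 4.88e-07), an ETS family member like PU.1, of Egr2 (0.879 ± 0.324 to 39.4 ± 17.7 CPM, adjusted p = 6.43e-06) and of Myc (2.62 ± 1.55 to 64.3 ± 19.6 CPM, adjusted p = 3.09e-06). In LLC blood Maf, a macrophage factor, fell (-0.70 ± 0.16 SE, adjusted p = 0.0114, lost without LLC blood 2). Its neighbours in that list, Zeb2 and Etv6, rose by 0.54 ± 0.17 and 0.35 ± 0.10 (adjusted p = 0.0452 and 0.0379), and both calls were lost without any single blood library.

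Genes with the most alike pattern over the 9 libraries were found among 6896 tested genes averaging 20 CPM or more, by the root mean square difference of log2 CPM centred on each gene's mean. The pattern of Spi1 was closest to those of Ppp1r9b and Psap (0.03 and 0.04), of Irf8 to Tfeb and Cnp (0.09 and 0.10), of Irf5 to Tmem134 and Rchy1 (0.05 each) and of Cebpd to Pik3r6 and Armc7 (0.07 each). Cebpb was closest to Map4k3 and Donson (0.12 each), Cebpa to Txnip and Ebi3 (0.17 and 0.22), Klf4 to Lacc1 and Tpt1 (0.17 and 0.19) and Cebpe to Pik3ap1 and Ass1 (0.22 and 0.24). Irf4 was closest to Gpr18 and BC035044 (0.25 and 0.33), small beside the 1.78 by which Irf4 itself varied about its mean. Gfi1 had no close match, with Eno1b and Fcgrt at 0.61 and 0.78 beside its own 1.15.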

How the data were processed

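RNA-seq of sorted monocytes was deposited by the authors as a table of expected counts (estimated reads for each gene, not normalized) and a table of CPM, scaled by the authors to the genes it lists. The submitters' processing notes name Trim Galore, cutadapt 3.4, STAR 2.6.1d, Salmon 1.9.0, edgeR and the build mm10, without their roles. All 9 RNA-seq libraries were used, and 22 samples of other assays were not analysed here. Column heads carry the letters BM where the sample titles say blood, and the titles were followed.

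Counts were rounded and fitted with edgeR 4.0.16 (R 4.3.3) over all 9 libraries: TMM, filterByExpr with a minimum count of 10, group as the only term, quasi-likelihood test, Benjamini-Hochberg over 12337 genes, called at 0.05. Single-gene adjusted p-values come from this model. On simulated data it recovered 80.5% of 200 genes changed 2-fold between LLC blood and healthy blood, with 6 false calls. The changed genes were drawn above a mean level that Gfi1 and Cebpe do not reach, and nothing else differed between groups. These figures therefore do not cover genes as low as these or the tumor comparisons. Whole reads were recovered from 100% of the CPM values per library (tolerance 0.01), for an alternative. Alternatives used other scalings, filters and thresholds, DESeq2 1.42.0, limma 3.58.1, fewer libraries and a replicate block. Ratios had 0.5 added to each count and were tested by exact permutation.

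All 10 members are named. Of each gene list, at most the 3 called genes with the largest absolute log2 fold change are named, provided they average 20 CPM or more in the pair of groups. The members and lists were chosen with earlier results of these data known. Gfi1, named without an Ensembl identifier, is not among the 10693 genes of the CPM table. Positions and promoters come from RefSeq. The marker Ly6g was not used here, and the level of 1 other marker is not reported here. Floors of 3 counts cover counting error only.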

Additional observations from a re-analysis of the deposited data

How the results depend on the processing

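Over 30 pairs of gene and comparison and up to 19 alternatives each (565 values), 508 kept their direction and their side of the threshold, 22 lost the call, 33 gained it and 2 reversed. Both reversals were Klf4 in LLC tumor against healthy blood, at -0.0488 with limma-voom and -0.0053 without LLC tumor 1 (main 0.37, and 0.60 without LLC tumor 3).

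In LLC blood against healthy blood 4 genes were called, and 8 with limma-voom and quality weights, 8 with only the 6 libraries compared and 2 at the stricter threshold of 0.01. For the whole table the count was 2917, and 5884, 4889 and 1386 under these settings. Leaving out single libraries gave 2 to 8 of the 10 genes, and 1494 to 5064 genes of the whole table. In LLC tumor against LLC blood 7 were called, and 4 at an adjusted p under 0.01, with 7566 and 5962 genes of the whole table. The count in LLC tumor against healthy blood ran from 8 to 10, and from 6600 to 9423 over the whole table. The causes of these shifts were not tested.

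Replicate numbers are shared between groups, but same-numbered libraries deviated together only weakly, so the numbers were not taken as pairs. Between LLC blood and healthy blood r was 0.30, 0.18 and 0.07 for same numbers and -0.31 to 0.17 for unlike ones. Between LLC tumor and LLC blood it was -0.08, 0.12 and -0.14 for same numbers and -0.14 to 0.17 for unlike ones. With a replicate block 8 of the 10 genes, and 4820 genes of the whole table, were called in LLC blood against healthy blood. That block gave 7 in LLC tumor against LLC blood (6556 of the whole table) and 9 in LLC tumor against healthy blood (7132 of the whole table). Between the blood groups, numbers 1 and 2 correlated best with their own number, and number 3 with another. Whether a factor is shared by libraries of the same number was not tested.

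None of the 18 ratio differences reversed under 7 alternatives each. Of 18 list genes named in blood, 7 were called in all alternatives, and of 24 named in the tumor, 23. Gfi1 rests on few counts: a fold against LLC blood or LLC tumor is imprecise, and it could not be fitted from the recovered CPM reads.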
